A study of Mus musculus with 12 samples.

Results

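The TNF superfamily is a set of trimeric signalling proteins, most of them made as membrane-bound ligands that can be shed, and of the cell-surface receptors that they cross-link. Receptors with a death domain can start apoptosis or necroptosis, and most others recruit TRAF adaptors that switch on NF-kB and MAP kinases. Macrophages are a main source of TNF itself, which activates endothelium and other leukocytes early in inflammation.

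The genes described are those whose symbol in the count table is Tnf, or Tnfsf (a ligand) or Tnfrsf (a receptor) followed by a number. There were 33 such genes among the 50559 rows of the table, namely 12 ligands, 20 receptors and Tnfsf13os, an RNA transcribed antisense to Tnfsf13 that carries the prefix but encodes no ligand. Of these, 26 had a mean of at least 0.1 CPM (the counts-per-million scale) over the libraries and are described. They comprise 10 ligands, 15 receptors and the antisense RNA. Ligands and receptors of the superfamily that carry other symbols (Lta, Ltb, Fas, Cd40 and others) were kept as a separate list.

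RNA sequencing was done on bone marrow-derived macrophages, cells grown in culture from the marrow of C57BL/6 mice. One group of 6 libraries came from cells given house dust mite allergen (HDM), a common trigger of allergic asthma, for 1 h, and the other group of 6 from cells given vehicle for 1 h. No genetic change is named for either group. Whether libraries of a group came from separate mice or cultures is not stated, and the p-values cover the spread among these libraries, which may be technical.

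The libraries held 19762479 to 119709894 counted reads with HDM and 19685273 to 62412188 with vehicle. The first principal component, with 48.2% of the variance, separated numbers 5 and 6, in both treatments, from numbers 1 to 4. Within a treatment, libraries with neighbouring numbers (1 and 2, 3 and 4, 5 and 6) deviated from the group mean together, with correlations over genes of 0.227 to 0.626 in the 6 such pairs and of -0.609 to 0.239 in the others. Their counts differed beyond sampling noise (chi-square per gene 2.27 to 21), so each was kept as a library. Among HDM libraries 1 to 4 the likeness of neighbours was mixed. The correlation was 0.257 for 1 and 2, 0.227 for 3 and 4 and 0.239 for 1 and 4. Chi-square per gene was 21, 2.27 and 17.5 for the same pairs. The pairs 1 and 3, 2 and 3, and 2 and 4 had 10.6, 10.4 and 16.4. Chi-square grows with read depth, so it does not rank likeness among pairs of unlike depth. If neighbours share a mouse or culture, each group holds 3 independent samples, and each main result is also given with neighbours summed, an alternative chosen after seeing the data. The label of the cells was checked against markers: 8 of 8 macrophage markers were at 0.1 CPM or more, with a summed level of 16700 to 20500 CPM with HDM and 16500 to 20900 CPM with vehicle. Of the T cell markers Cd3e had 2 reads and Trac 0 reads over the 12 libraries, while Cd4 averaged 2.99 CPM and Gata3 0.229 CPM. Il7r, Sdc1 and Itgax, listed for lymphocytes, plasma cells and dendritic cells, averaged 319, 118 and 140 CPM. In the osteoclast list 5 of 7 markers were at 0.1 CPM or more. The summed level of that list was 170 to 459 CPM with HDM and 179 to 498 CPM with vehicle. In the list for stroma or endothelium 5 of 8 were at 0.1 CPM or more. Its summed level was 13.7 to 39.1 CPM with HDM and 12.7 to 39.8 CPM with vehicle. Whether these reads came from other cell types was not tested. In all 8 marker lists the summed levels of the treatments overlapped and edgeR's quasi-likelihood test called 0 genes. Most markers outside the macrophage list missed the filter on low counts and could not be called, so 0 calls say little about those cell types. In bulk RNA fewer cells of a type and less RNA per cell cannot be told apart.

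Tnf carries the largest change described below, so 2 stretches of its gene are shown, with the upstream region of Tnfrsf12a, the one receptor gene that fell, for comparison. The upstream regions are the 250 bases before the transcription start in RefSeq (build GRCm38.p6, both on the minus strand, chr17:35202008-35202257 for Tnf and chr17:23677450-23677699 for Tnfrsf12a, written in the direction of transcription). Capitals mark GGAAA, the core that NFAT factors bind, or its reverse complement TTTCC. The third stretch holds 30 bases of the Tnf 3' untranslated region in GENCODE M21 (bases 440 to 469 of 764), an AU-rich element through which tristetraprolin marks the mRNA for decay. Capitals there mark the pentamer ATTTA.
Tnf upstream: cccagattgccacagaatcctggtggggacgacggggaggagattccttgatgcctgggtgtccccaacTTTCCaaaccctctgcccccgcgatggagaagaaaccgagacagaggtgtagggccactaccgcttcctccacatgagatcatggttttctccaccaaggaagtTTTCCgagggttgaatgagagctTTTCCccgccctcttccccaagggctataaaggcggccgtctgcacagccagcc
Tnfrsf12a upstream: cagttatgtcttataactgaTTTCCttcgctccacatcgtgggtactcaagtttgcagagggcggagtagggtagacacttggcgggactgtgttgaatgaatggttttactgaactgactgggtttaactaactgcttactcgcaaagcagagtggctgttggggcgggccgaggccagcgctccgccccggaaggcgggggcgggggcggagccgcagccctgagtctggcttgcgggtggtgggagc
Tnf AU-rich element: ATTTAttATTTATTTAttATTTATTTAttt

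On either strand GGAAA occurred 3 times before Tnf (bases 181 to 177, 77 to 73 and 54 to 50 before the start) and 1 time before Tnfrsf12a. It is a short motif, found in 55.6% of the 32851 upstream regions of the same length in the table, and in 13 of the 19 described members that the table holds. The 10-base kappaB motif of NF-kB occurred in neither stretch, in 2 of the 19 members (Tnfrsf8 and Tnfrsf9) and in 7.25% of all upstream regions. The AP-1 motif TGANTCA occurred in 5 of the 19 and in 6.75% of all, and TGACGTCA in 0 of the 19 and in 1.55% of all. A member was counted if any of its upstream regions held the motif, while the percentages are over single regions. Members with more than 1 region, such as Tnfrsf9 and Tnfsf13b, thus had more room for a match. The table holds no region for Tnfsf9 or Tnfrsf10b, both called below, so their motifs are not known here. No motif overlap was removed, and a match describes letters, not binding. In the 3' untranslated region Tnf had 8 copies of ATTTA, 5 of them within the 30 bases printed. At least that many within 30 bases were found in 0.274% of 20829 genes. Among the other members with an annotated coding transcript the most was 2, in Tnfrsf10b, Tnfsf10, Tnfsf13b and Tnfsf8.

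After 1 h of HDM 2 ligand genes rose strongly, Tnf by 13.3-fold and Tnfsf9 by 9.14-fold, 1 receptor gene rose slightly, Tnfrsf10b, and 1 receptor gene fell, Tnfrsf12a. The other 21 tested members were not called. Of the 26 members 25 passed the filter on low counts, and edgeR's quasi-likelihood test with Benjamini-Hochberg adjustment over all 13530 tested genes called 3 higher and 1 lower. Over all tested genes 5.37% were called, 2.90% higher and 2.47% lower. The family was chosen with earlier results of these data known, so these shares do not test it as a set. The median log2 fold change was 0.08 over the 25 members and 0.00 over all tested genes. With the library number as a block, a pairing that rests on the data and not on the labels, 7 members were called higher and 1 lower, where 14.7% of all tested genes were called, 7.90% higher and 6.81% lower. With neighbouring numbers summed, 3 against 3, 2 members were called higher and 1 lower, where 0.583% of 14933 tested genes were called higher and 0.214% lower.

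**Figure D1:**
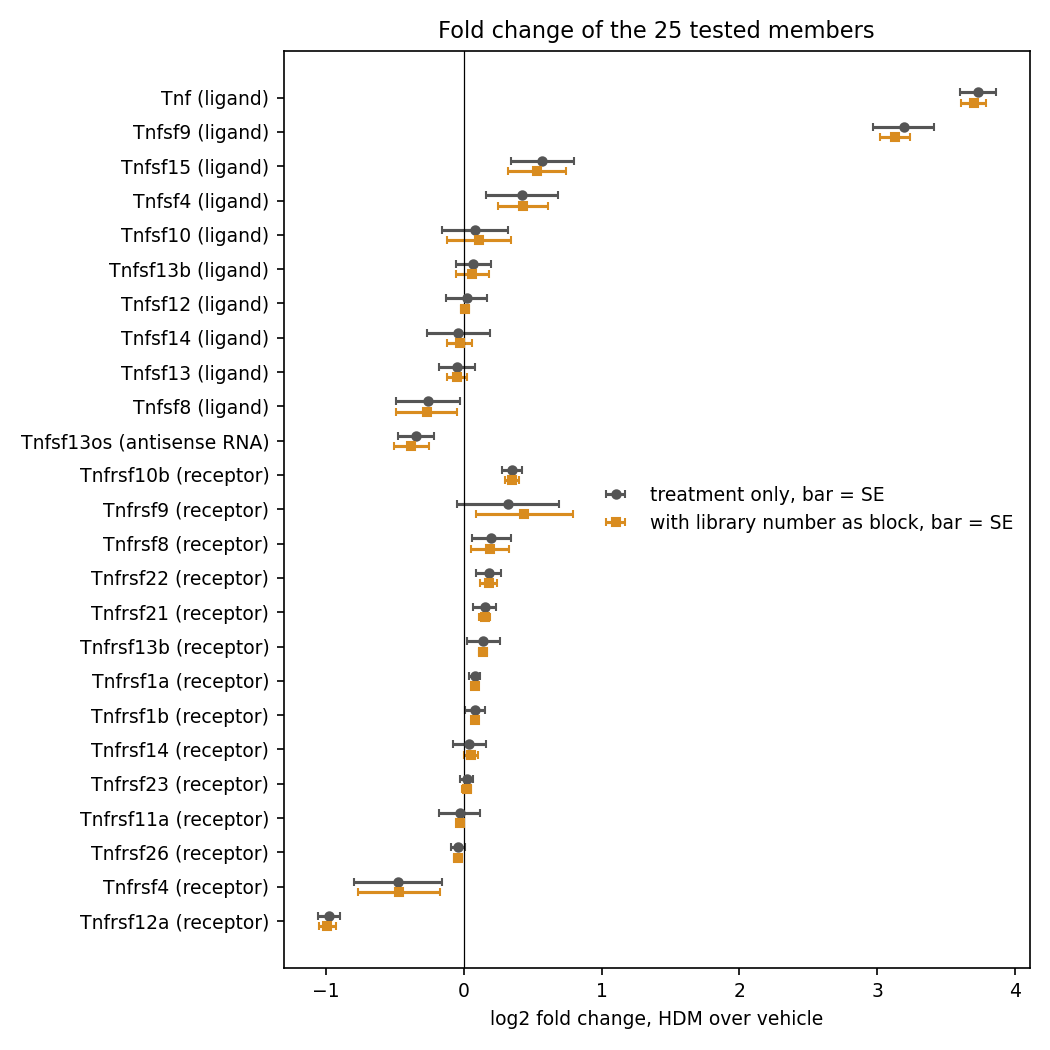
Log2 fold change (HDM over vehicle, horizontal axis) of the 25 tested members, ligands above receptors, from the fit with treatment only and from the fit with library number as a block; bars are standard errors. Tnf and Tnfsf9 lie beyond 3, Tnfrsf12a lies near -1, and the other members lie between -0.48 and 0.57.

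Among the ligands, Tnf encodes the founding cytokine of the family. Its level in libraries 1 to 6 was 160, 156, 130, 121, 193 and 202 CPM with HDM and 11.4, 12.1, 13.6, 12.7, 10.9 and 11.5 CPM with vehicle. Every HDM library lay above every vehicle library, which held for 2.32% of tested genes in this direction, and the HDM libraries numbered 5 and 6 were the highest. The means were 160 ± 32.8 CPM with HDM and 12 ± 0.994 CPM with vehicle (SD, n = 6 each). The log2 fold change was 3.73 ± 0.13 (SE, edgeR adjusted p = 1.95e-09), a 13.3-fold higher level, and 3.70 ± 0.09 with the block (adjusted p = 8.88e-15). With neighbouring numbers summed it was 3.73 ± 0.19 (SE, adjusted p = 0.00138).

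Tnfsf9 encodes 4-1BB ligand, a costimulatory ligand for T cells. In libraries 1 to 6 it was at 24.9, 22.3, 15.5, 14.8, 32.2 and 32.6 CPM with HDM and at 2.54, 2.88, 1.94, 2.85, 2.12 and 3.12 CPM with vehicle. The groups did not overlap, and again the HDM libraries numbered 5 and 6 were highest. The means were 23.7 ± 7.77 CPM with HDM and 2.57 ± 0.466 CPM with vehicle (SD, n = 6 each). The log2 fold change was 3.19 ± 0.22 (SE, edgeR adjusted p = 9.68e-07), or 9.14-fold, and 3.18 ± 0.29 with neighbouring numbers summed (adjusted p = 0.00762). Its receptor gene Tnfrsf9, which encodes 4-1BB, had 0.263 ± 0.112 CPM with HDM and 0.213 ± 0.0712 CPM with vehicle (SD, n = 6 each; edgeR adjusted p = 0.907).

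**Figure D2:**
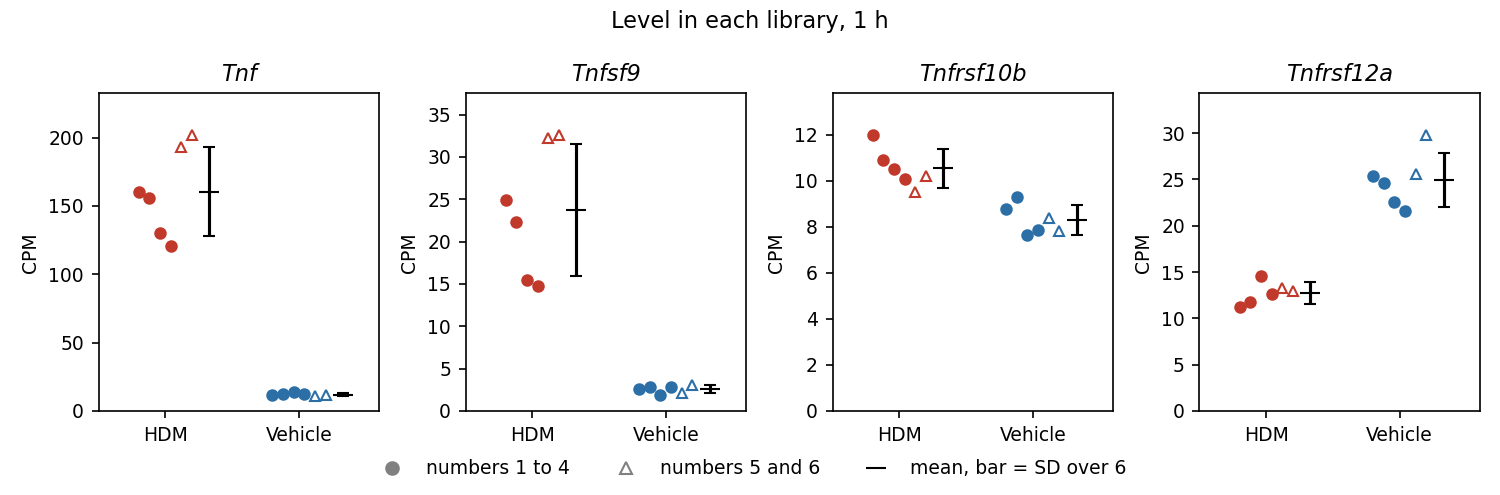
CPM in each library (vertical axis, from 0) for the 4 called members, HDM left and vehicle right; filled circles are libraries numbered 1 to 4, open triangles those numbered 5 and 6, and the bar is the mean with its SD over 6. The groups do not overlap in any of the 4 panels, and the open triangles are the highest HDM points for Tnf (193 and 202 CPM) and Tnfsf9 (32.2 and 32.6 CPM).

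The rises of Tnf and Tnfsf9 were present in both sets of library numbers. For Tnf the log2 fold change was 4.13 in numbers 5 and 6 alone (adjusted p = 3.93e-42) and 3.52 in numbers 1 to 4 alone (adjusted p = 7.09e-11). For Tnfsf9 it was 3.54 (adjusted p = 5.76e-29) and 2.95 (adjusted p = 2.43e-07). In the fit of numbers 5 and 6 alone each group held only the libraries so numbered. Those may share a mouse or culture, so the p-values of that fit may cover technical spread only. The difference between the sets was 0.62 ± 0.13 SE for Tnf (edgeR interaction term with the block, adjusted p = 0.0463) and 0.62 ± 0.20 SE for Tnfsf9 (adjusted p = 0.32). The Tnf difference was no longer called when pair 3, 4, 5 or 6 was left out (adjusted p 0.0566 to 0.626). The Tnfsf9 difference was called when pair 1 was left out (0.78, adjusted p = 0.0398) and was 0.98 without pair 6 (adjusted p = 0.622). With vehicle Tnf was not higher in numbers 5 and 6: the means were 11.2 CPM in numbers 5 and 6 and 12.4 CPM in numbers 1 to 4, beside HDM means of 198 and 142 CPM. These sets were defined from the libraries themselves, and the part of the library numbers in the difference was not tested further.

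The other 8 ligand genes were not called. Tnfsf12, which encodes TWEAK, had 35.7 ± 7.73 CPM with HDM and 35.3 ± 6.45 CPM with vehicle (SD, n = 6 each; log2 fold change 0.02 ± 0.15 SE). Tnfsf13 (APRIL) was at 6.27 ± 0.888 and 6.58 ± 1.41 CPM with HDM and vehicle, Tnfsf14 (LIGHT) at 3.00 ± 0.984 and 3.03 ± 0.778 CPM, and Tnfsf13b (BAFF, a B cell survival factor) at 1.76 ± 0.227 and 1.66 ± 0.266 CPM. Their log2 fold changes ran from -0.05 to 0.07.

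The rarer ligand genes had wider errors. Tnfsf15, which encodes TL1A, ran from 0.301 to 0.823 CPM with HDM (median 0.634) and from 0.317 to 0.569 CPM with vehicle (median 0.406), at a log2 fold change of 0.57 ± 0.23 SE (edgeR adjusted p = 0.236). It was higher with HDM in 5 of 6 library numbers. Tnfsf4, which encodes OX40 ligand, ran from 0.418 to 1.12 CPM with HDM (median 0.908) and from 0.310 to 0.818 CPM with vehicle (median 0.730). It was higher with HDM in 6 of 6 numbers, at 0.42 ± 0.26 SE (edgeR adjusted p = 0.616, and 0.124 with the block). The groups of both genes overlapped. Of 13530 tested genes 1214 were higher with HDM in 6 of 6 numbers. Tnfsf10, which encodes the death ligand TRAIL, had 0.486 ± 0.136 CPM with HDM and 0.446 ± 0.129 CPM with vehicle (SD, n = 6 each), at a log2 fold change of 0.08 ± 0.24 SE. Tnfsf8, the gene of CD30 ligand, had 0.49 ± 0.178 CPM with HDM and 0.586 ± 0.129 CPM with vehicle, at -0.26 ± 0.23 SE.

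The antisense RNA Tnfsf13os had 1.09 ± 0.138 CPM with HDM and 1.42 ± 0.208 CPM with vehicle (SD, n = 6 each). It was lower with HDM in 6 of 6 numbers, at -0.35 ± 0.13 SE (edgeR adjusted p = 0.162, and 0.0546 with the block). Of 13530 tested genes 1211 were higher with HDM in 0 of 6 numbers. In GENCODE M21 Tnfsf13os lies opposite Tnfsf12 and Tnfsf13, and a read-through transcript, Tnfsfm13, joins those 2 genes. Of the 50-base words in the transcripts of Tnfsf12 46.8% recur in Tnfsfm13, and 57.3% of those of Tnfsf13. Whether the counting used strand is not given in the sources used here, and the split of reads among these genes is uncertain.

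Among the receptors, Tnfrsf12a fell. It encodes Fn14, the receptor of TWEAK. In libraries 1 to 6 it was at 11.2, 11.8, 14.6, 12.6, 13.3 and 12.9 CPM with HDM and at 25.4, 24.6, 22.6, 21.6, 25.6 and 29.8 CPM with vehicle. Every HDM library lay below every vehicle library, which held for 2.07% of tested genes in this direction. The log2 fold change was -0.98 ± 0.08 (SE, edgeR adjusted p = 5.41e-06), a level 0.508 times that with vehicle, and -1 ± 0.11 with neighbouring numbers summed (adjusted p = 0.016). Its ligand gene Tnfsf12 was not called, as given above.

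Tnfrsf10b rose slightly. It encodes the death-domain receptor of TRAIL. In libraries 1 to 6 it was at 12, 10.9, 10.5, 10.1, 9.54 and 10.2 CPM with HDM and at 8.79, 9.29, 7.67, 7.86, 8.38 and 7.84 CPM with vehicle. The groups did not overlap, but the lowest HDM library lay close above the highest vehicle library. The log2 fold change was 0.35 ± 0.07 (SE, edgeR adjusted p = 0.00825), or 1.27-fold, and 0.35 ± 0.05 with the block (adjusted p = 1.67e-04). With neighbouring numbers summed it was 0.36 ± 0.10 and not called (SE, adjusted p = 0.35). In numbers 5 and 6 alone it was 0.29 and not called (adjusted p = 0.0595), and in numbers 1 to 4 alone 0.39 (adjusted p = 0.00954). Tnfrsf22 and Tnfrsf23, which encode decoy receptors of TRAIL in the mouse, were not called, at 0.18 ± 0.09 and 0.02 ± 0.05 (SE). Their levels were 10.2 ± 1.11 and 28.9 ± 1.95 CPM with HDM and 9 ± 1.08 and 28.5 ± 1.5 CPM with vehicle (SD, n = 6 each). These neighbours share sequence, 17.3% and 18.0% of their 50-base words, so their split of reads is uncertain.

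The genes of the receptors of TNF itself were the most abundant per length among the 15 described receptor genes. Tnfrsf1b, which encodes TNFR2, averaged 175 ± 16.9 CPM per kb of exons with HDM and 165 ± 15.7 with vehicle, and Tnfrsf1a, which encodes the death-domain receptor TNFR1, 62.5 ± 2.33 and 59.1 ± 2.90 (SD, n = 6 each). On that scale Tnfrsf1b made up 51.5% of the summed level of the 15 receptor genes with HDM and 50.1% with vehicle. Tnfrsf11a, the gene of the osteoclast receptor RANK, came next among these 15, at 24.9 ± 4.59 and 25.4 ± 4.86. Receptor genes under other symbols were not ranked, such as Ltbr, at 76.9 ± 4.17 CPM with HDM and 77.4 ± 5.43 CPM with vehicle. Tnf made up 66.8% of the summed level of the 10 ligand genes with HDM, against 18.7% with vehicle, where Tnfsf12 was the highest ligand at 23.3 ± 4.26. Lengths are merged exons of GENCODE M21, which may not be the annotation the authors counted on.

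**Figure D3:**
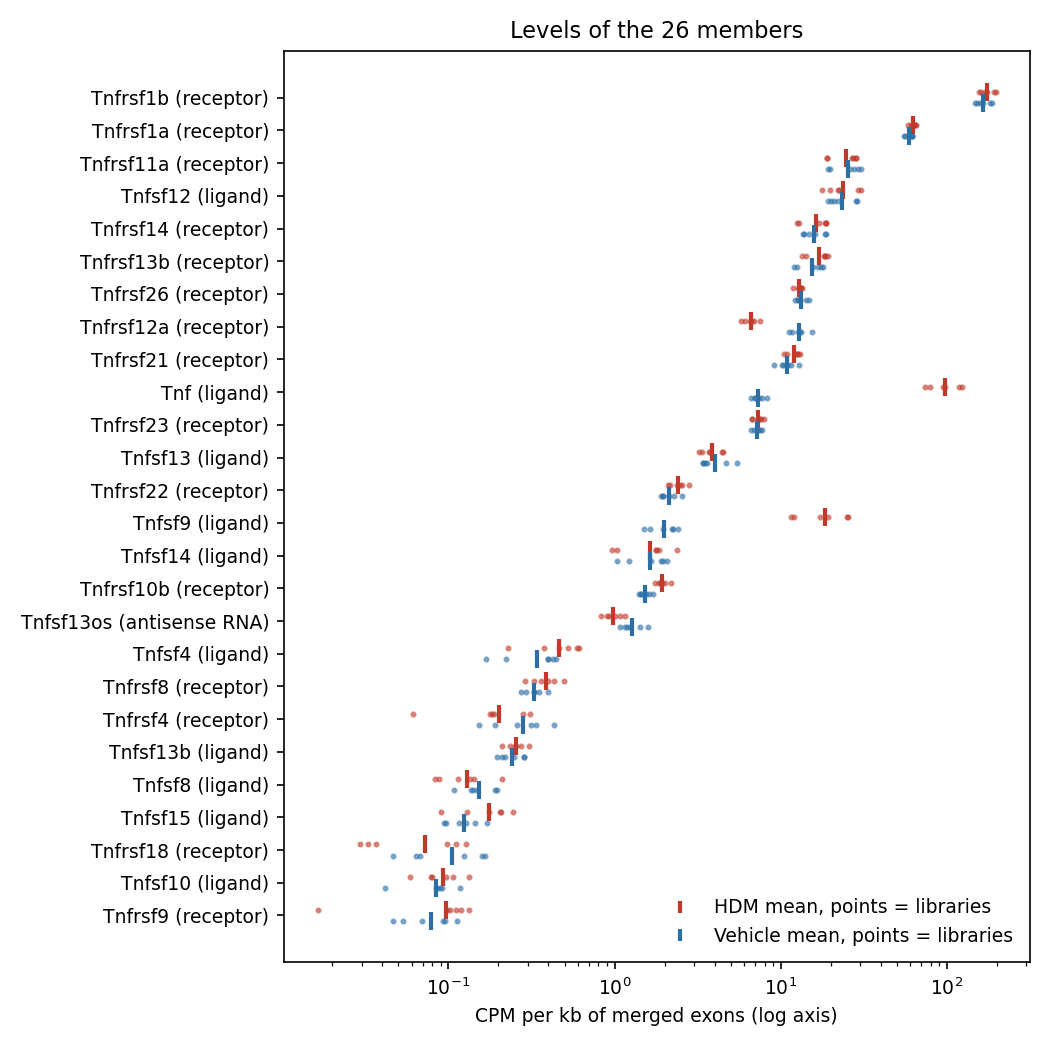
Level of the 26 described members in CPM per kb of merged exons (log axis), ordered by the vehicle mean; small points are libraries and ticks are group means, HDM above vehicle within each row. Tnf is at rank 2 with HDM and at rank 10 with vehicle, while Tnfrsf1b is first in both.

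Both TNF receptor genes were higher with HDM by little, in 6 of 6 library numbers, as were 1214 of 13530 tested genes. Tnfrsf1a ran from 152 to 168 CPM with HDM (median 164) and from 143 to 160 CPM with vehicle (median 156), at a log2 fold change of 0.08 ± 0.04 SE (edgeR adjusted p = 0.415, and 0.0235 with the block). Tnfrsf1b ran from 596 to 753 CPM with HDM (median 656) and from 563 to 710 CPM with vehicle (median 618), at 0.08 ± 0.07 SE (adjusted p = 0.811 without and 0.00953 with the block). The groups of both genes overlapped. In both treatments numbers 5 and 6 were the lowest libraries.

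A further 2 receptor genes were called with the block and not without it. Tnfrsf13b, which encodes TACI, a receptor of BAFF and APRIL, ran from 37.9 to 54.7 CPM with HDM (median 51.8) and from 34.3 to 50.9 CPM with vehicle (median 45.9). It was higher in 6 of 6 numbers, at 0.14 ± 0.12 SE (edgeR adjusted p = 0.822), and at 0.14 ± 0.03 with the block (adjusted p = 0.00278). Tnfrsf21, which encodes the death receptor DR6, ran from 43.1 to 53.4 CPM with HDM (median 51.5) and from 37.5 to 52.6 CPM with vehicle (median 44.1). It was higher in 5 of 6 numbers, at 0.15 ± 0.08 SE (adjusted p = 0.48 without and 0.00903 with the block). With the block and neighbouring numbers summed, Tnfrsf13b, Tnfrsf1b and Tnfrsf21 were called (adjusted p = 0.0109, 0.0265 and 0.0257) and Tnfrsf1a was not (adjusted p = 0.0679).

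**Figure D4:**
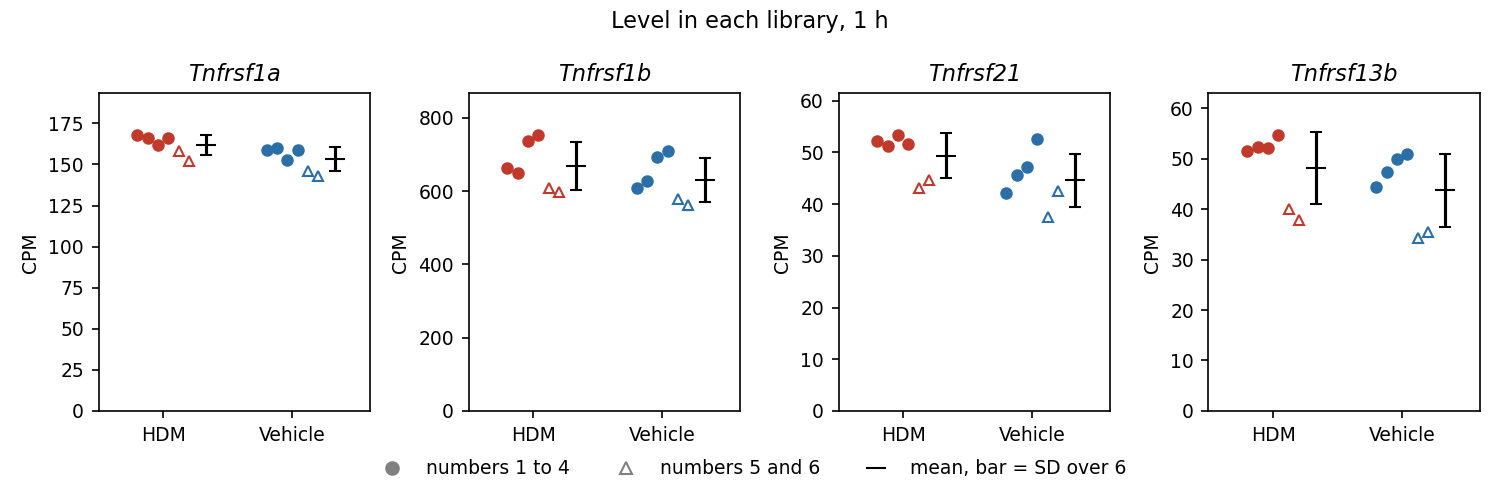
CPM in each library (vertical axis, from 0) for the 4 receptor genes called only with library number as a block, HDM left and vehicle right; symbols as for the called members. The groups overlap in every panel, with ranges such as 152 to 168 CPM with HDM and 143 to 160 CPM with vehicle for Tnfrsf1a, and the open triangles of numbers 5 and 6 lie low in both treatments.

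The remaining receptor genes were not called with or without the block. Tnfrsf11a was at a log2 fold change of -0.03 ± 0.15 SE, and at -0.03 ± 0.02 with the block. Tnfrsf14, the gene of HVEM, a receptor of LIGHT, had 23.5 ± 4.19 CPM with HDM and 22.9 ± 3.24 CPM with vehicle (SD, n = 6 each), and Tnfrsf26 had 41.6 ± 1.79 and 42.8 ± 3.29 CPM. Tnfrsf8, the gene of CD30, was at 1.33 ± 0.252 and 1.14 ± 0.152 CPM, higher with HDM in 6 of 6 numbers (0.20 ± 0.14 SE, edgeR adjusted p = 0.812). Tnfrsf4, the gene of OX40, was at 0.274 ± 0.12 and 0.384 ± 0.14 CPM (-0.48 ± 0.32 SE). Tnfrsf18, the gene of GITR, had 38 reads with HDM and 43 with vehicle, missed the filter on low counts, and in a fit with the filter at 0.1 CPM was at -0.47 ± 0.43 SE (adjusted p = 0.838). In CPM it was lower with HDM in 6 of 6 numbers, but on few reads. In number 5 it had 2 reads with HDM and 2 with vehicle, so the direction there rests on library depth.

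The precision differed with the level. The 11 uncalled members with a mean of at least 5 CPM had log2 fold changes between -0.05 and 0.18 with standard errors of 0.04 to 0.15. The 10 below that mean ran from -0.48 to 0.57 with standard errors of 0.13 to 0.37.

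The 7 members under 0.1 CPM were the ligand genes Tnfsf11 (RANK ligand) and Tnfsf18 (GITR ligand) and the receptor genes Tnfrsf11b (osteoprotegerin, a decoy of RANK ligand), Tnfrsf13c (the BAFF receptor), Tnfrsf17 (BCMA), Tnfrsf19 and Tnfrsf25 (the TL1A receptor). Tnfsf11 and Tnfrsf13c had 0 reads. At this depth 0 reads allow a level of up to 0.00983 CPM with HDM and 0.0121 CPM with vehicle (3 reads over each group, counting error only). The other 5 had between 2 and 24 reads over the 12 libraries. The RANK gene was thus at 113 CPM or more in every library while its ligand and decoy genes were under 0.1 CPM.

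The libraries numbered 5 and 6 differed from those numbered 1 to 4 for most members, and in the same direction under both treatments for 24 of 26. In both treatments 15 were lower and 9 higher in numbers 5 and 6. The first principal component over all tested genes separated these sets in both treatments, so agreement in direction is partly built in. The same share over all tested genes was not counted, so these counts do not set the members apart from other genes. Tnfrsf11a averaged 114 CPM in numbers 5 and 6 and 166 CPM in numbers 1 to 4 with HDM, and 116 and 170 CPM with vehicle. Tnfsf12 averaged 45.1 and 31.0 CPM with HDM, and 43.4 and 31.2 CPM with vehicle. Tnfsf14 averaged 1.85 and 3.58 CPM with HDM, and 2.08 and 3.50 CPM with vehicle. The exceptions in direction were Tnf, at 0.48 with HDM and -0.15 with vehicle on the log2 scale, and Tnfsf8, at -0.31 and 0.53.

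**Figure D5:**
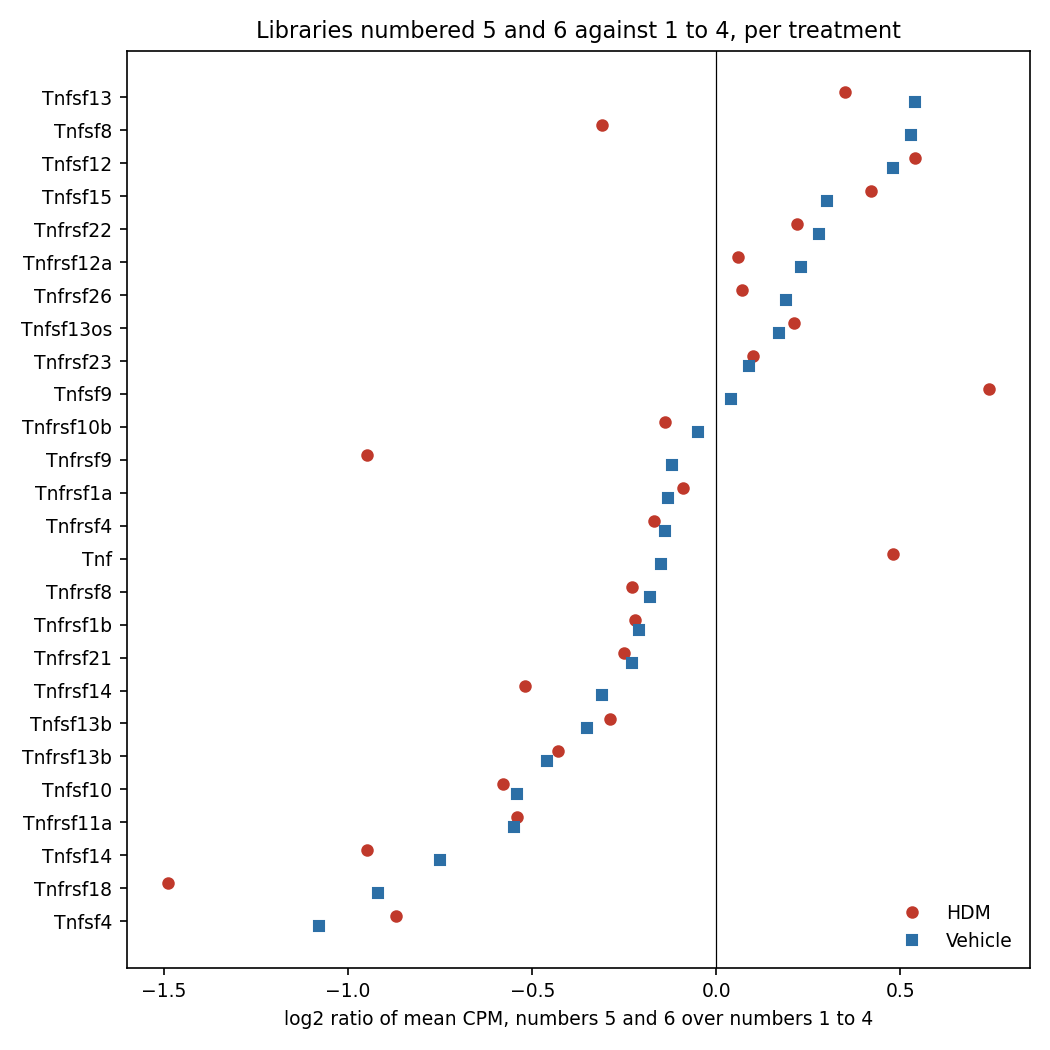
Log2 ratio of mean CPM in libraries numbered 5 and 6 over those numbered 1 to 4 (horizontal axis) for the 26 members, with HDM and with vehicle. The ratios fall on the same side of 0 in both treatments for 24 of 26 members. Those of Tnf (0.48 with HDM, -0.15 with vehicle) and Tnfsf8 (-0.31 and 0.53) do not. The same share over all tested genes was not counted.

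Family members under other symbols were not called. Of 6 further ligand genes 1 passed the filter, Ltb, the gene of lymphotoxin beta, which lies next to Tnf on chromosome 17. It had 0.491 ± 0.134 CPM with HDM and 0.546 ± 0.235 CPM with vehicle (SD, n = 6 each; -0.16 ± 0.28 SE, edgeR adjusted p = 0.978). Lta, the neighbour of Tnf on its other side, had 32 reads with HDM and 33 with vehicle. Cd70, between Tnfsf9 and Tnfsf14 on chromosome 17, had 0 reads with HDM and 2 with vehicle. Of 8 further receptor genes 5 were tested and edgeR called 0, with 1 at an unadjusted p under 0.05 (Eda2r, 0.44 ± 0.20 SE, adjusted p = 0.32) and 0 with DESeq2, limma-voom or the block. Fas, the death receptor of Fas ligand, was at 0.05 ± 0.15 and Cd40, a costimulatory receptor, at -0.06 ± 0.09.

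Of 33 genes of signalling just below the receptors 5 rose and 2 fell by edgeR's quasi-likelihood test, and 9 rose and 2 fell with the block. The list was chosen with earlier results of these data known, so its share of called genes does not test it against all genes. Over all tested genes 2.90% were called higher and 2.47% lower, and 7.90% and 6.81% with the block, so that the 2 lower of 33 with the block are near the share of all genes. The rises without the block were those of the NF-kB inhibitor gene Nfkbia (3.50 ± 0.13 SE on the log2 scale, adjusted p = 3.25e-09), of Tnfaip3, which encodes the deubiquitinase A20 (3.25 ± 0.17, adjusted p = 9.3e-08), of Birc3, the gene of the ubiquitin ligase cIAP2 (0.51 ± 0.05, adjusted p = 2.56e-05), of Cflar, the gene of the caspase-8 inhibitor c-FLIP (0.31 ± 0.05, adjusted p = 0.00313), and of the NF-kB subunit gene Relb (0.13 ± 0.03, adjusted p = 0.0396). Nfkbia had 508 ± 61.6 CPM with HDM and 44.8 ± 8.55 CPM with vehicle, and Tnfaip3 had 793 ± 213 and 83.6 ± 12.8 CPM (SD, n = 6 each). Ripk1, the gene of a kinase of TNFR1 signalling, fell, at -0.12 ± 0.03, as did Sharpin, the gene of a subunit of the linear ubiquitin ligase, at -0.14 ± 0.03 (adjusted p = 0.0137 and 0.0142). Traf1, the gene of a TRAF adaptor, was at 0.19 ± 0.13 (adjusted p = 0.683 without and 0.0048 with the block). The median over the 33 was 0.04, against 0.00 over all tested genes. Relb was no longer called when HDM library 2, 4, 5 or 6 or vehicle library 1, 2, 3 or 4 was left out (adjusted p 0.0537 to 0.0972), nor with total library size (0.0612), no filter on low counts (0.122) or numbers 5 and 6 alone (0.447). Ripk1 and Sharpin were not called with no filter on low counts (adjusted p = 0.0772 and 0.0645) or in numbers 5 and 6 alone (0.0624 and 0.0796).

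Of 12 genes that control the decay or translation of Tnf mRNA 4 rose and 0 fell by edgeR's quasi-likelihood test, where 2.90% of all tested genes were called higher and 2.47% lower. This list and that of ligand shedding were also chosen with earlier results known, so their shares do not test them against all genes. None was lower at an unadjusted p under 0.05 (0 genes), or with DESeq2, limma-voom or the block (0 each). DESeq2 called 5 higher, limma-voom 4 and the block 6, where 7.90% of all tested genes were called higher. The block added Rc3h1 and Rc3h2, the genes of the RNA-binding proteins Roquin-1 and Roquin-2 (adjusted p = 0.00135 and 0.0112). Zfp36, which encodes tristetraprolin, had 633 ± 37.2 CPM with HDM and 102 ± 22.1 CPM with vehicle (SD, n = 6 each; log2 fold change 2.63 ± 0.13 SE, edgeR adjusted p = 3.53e-08). Its relative Zfp36l1 rose by 1.74 ± 0.13 (adjusted p = 1.92e-06), Zc3h12a, the gene of the RNase Regnase-1, by 0.33 ± 0.07 (adjusted p = 0.0121), and Elavl1, the gene of the mRNA-stabilising protein HuR, by 0.16 ± 0.03 (adjusted p = 0.0137). Of 5 tested genes of ligand shedding 1 rose, Rhbdf2, whose product iRhom2 carries the TNF-cleaving protease to the surface (0.14 ± 0.03, adjusted p = 0.0293). It was no longer called when HDM library 1, 3, 4 or 5 or vehicle library 1 or 4 was left out (adjusted p 0.055 to 0.0694), or with upper-quartile factors, total library size or no filter on low counts (0.088, 0.132 and 0.123), or in numbers 5 and 6 alone (0.0587). With the block 1 gene of the list rose and 1 fell. The one that fell was Rhbdf1, the gene of iRhom1, with 2.57 ± 0.474 CPM with HDM and 3.26 ± 0.405 CPM with vehicle (SD, n = 6 each). Its log2 fold change was -0.33 ± 0.13 SE without the block (edgeR adjusted p = 0.215) and -0.31 ± 0.09 with it (adjusted p = 0.035). It was lower in 6 of 6 numbers, and of 13530 tested genes 1211 were higher in 0 of 6. Rhbdf1 was named after its values were seen. Adam17, the gene of that protease, had 410 ± 23.9 CPM with HDM and 409 ± 23.3 CPM with vehicle (0.00 ± 0.05 SE, adjusted p = 1). With neighbouring numbers summed Nfkbia, Tnfaip3, Birc3, Zfp36 and Zfp36l1 remained called, while Cflar, Ripk1, Sharpin, Relb, Zc3h12a, Elavl1 and Rhbdf2 did not (adjusted p 0.281 to 0.551).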

How the data were processed

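Libraries were made with a stranded mRNA kit, per the labels' protocols. The authors deposited raw counts per gene symbol, not scaled, in 1 table with 1 column per library. The submitters' processing notes name, without roles, STAR 2.6.0c, cutadapt 4.5, Trim Galore 0.6.10, FastQC 0.12.1, Subread and featureCounts 2.0.6, and the builds mm39 and GRCm38. No gene coordinates are printed other than those of the RefSeq upstream table. Counts were tested with edgeR 4.0.16 (quasi-likelihood F test, TMM factors, default filterByExpr filter, two-sided, group as the only term) in R 4.3.3, with limma 3.58.1 and DESeq2 1.42.0 as alternatives, and called at an adjusted p under 0.05. Levels are CPM with TMM factors; the bound of 0.1 CPM uses unscaled CPM. The SE is the log2 fold change divided by the square root of F. Same-numbered HDM and vehicle libraries deviated together (correlations of deviations 0.466 to 0.783 over 6 pairs, above the bound of 0.1), so the number was also fitted as a block. Libraries of unlike numbers were not compared across treatments. Numbers 5 and 6 stand apart from 1 to 4 in both treatments, which raises these correlations, so they do not test a pairing by single number. The fits without and with the block were run on simulated counts, drawn independently for each library with no effect of library number. That simulation cannot show how either fit handles libraries that deviate together. RefSeq upstream sequences matched 25 of the 33 members, 19 of the 26 described. Every described member is named, called ones with the value of every library. Of the other lists up to 4 called genes with the smallest p and 9 fixed genes are given, and the further called genes were added after their values were seen. Members and lists were chosen with earlier results of these data known.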

Additional observations from a re-analysis of the deposited data

Results flagged for a closer look

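The HDM effect on Tnf was larger in the libraries numbered 5 and 6 than in those numbered 1 to 4, by 0.62 on the log2 scale (SE 0.13, edgeR interaction term with the block, adjusted p = 0.0463). The same difference was called for 0.473% of tested genes and for 1 of 25 tested members. Of 11 alternatives 5 kept the call (adjusted p 0.000321 to 0.0473) and 6 lost it (0.0566 to 0.626), namely robust estimation, limma-voom, and leaving out pair 3, 4, 5 or 6. The difference itself ran from 0.54 to 0.73. The sets of numbers are not groups of the study.

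The HDM library numbered 5 had 0.0445 CPM of Tnfrsf9, from 2 reads, while the other 5 HDM libraries had 0.268 to 0.361 CPM. Of 52 groups examined for such a gap this was the only one. About 1 in 20 groups of normal, independent values would pass the bound used, a rate that 1 gap in 52 groups does not exceed. The groups share libraries and some hold few reads, so the rate in these data is not known. The cause of the gap was not tested.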

How the results depend on the processing

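No member changed sign with a call under any alternative run. Of 925 values of single members under alternatives 870 kept their side of the threshold and 2 lost a call, both of Tnfrsf10b (numbers 5 and 6 alone, neighbouring numbers summed). The other 53 gained a call, in fits with the library number as a block. The members called, 3 higher and 1 lower, were the same genes with each of 12 libraries left out. With the replicate block 7 members were called higher, also 7 with DESeq2, limma-voom or the filter at 0.1 CPM. The count was 6 with upper-quartile factors or total library size, 6 in numbers 1 to 4, 6 with neighbouring numbers summed, and 6 to 8 with 1 pair left out. With the block and either of those scalings 2 members were called lower, the second being Tnfsf13os. Over all genes the replicate block called 1069 higher and 921 lower, in place of 393 and 334. Without the block, numbers 1 to 4 alone gave 683 higher and numbers 5 and 6 alone gave 567 lower. Upper-quartile factors gave 360 and 408, and total library size 347 and 413, against which 393 and 334 have the other order. Describing members from 0.5 CPM or 1 CPM would leave 21 and 19 members. The causes were not tested. Depth limits members under 5 CPM most.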
